A study of Mus musculus with 14 samples.

Results

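The proteasome subunit genes were the protein-coding genes whose mouse symbol reads Psma to Psmg followed by a digit. They numbered 50 of 51626 gene symbols with FPKM values, and all 50 were listed in each of the 3 deposited tables. The proteasome is the protease that degrades proteins marked with ubiquitin. Its core particle is a barrel of alpha rings (Psma genes) and beta rings (Psmb genes), in which Psmb5, Psmb6 and Psmb7 carry the catalytic sites. The regulatory particle caps the barrel: its ATPases (Psmc genes) unfold substrates, and its other subunits (Psmd genes) recognise ubiquitin and remove it. Other members encode alternative activators (Psme genes), an inhibitor (Psmf1) and assembly chaperones (Psmg1 to Psmg4, Psmd5, Psmd9 and Psmd10). In neurons the proteasome is known to take part in synapse growth and plasticity. By these roles the members divided into 14 constitutive core subunits, 17 regulatory particle subunits, 5 tissue-specific core subunits, 5 activators, 1 inhibitor, 7 chaperones, and Psmc3ip, which matches the symbol rule but encodes a recombination protein and no proteasome subunit.

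RNA was sequenced from newborn mouse cortex at postnatal day 0.5, in 14 libraries of the strain C57BL6/J. The frontal cortex set held 4 libraries of Auts2 cKO mice, homozygous for floxed exon 15 of Auts2 with Emx1-cre, and 4 libraries of wild type mice. Emx1-cre recombines in the dorsal lineage that gives excitatory neurons and glia, so other cells of the cKO tissue keep Auts2, and the wild type mice are not labelled as carrying Cre, so Cre and the deletion cannot be told apart. In the RNA immunoprecipitation (RIP), cortex of 2 pooled neonates per replicate was split into an AUTS2 pull-down with an antibody to the C terminus, a control pull-down with IgG, and 10% input, giving the matched trios A and B. The questions were whether loss of Auts2 changed the level of these mRNAs, and which of them were recovered with AUTS2.

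Levels are FPKM, sequenced fragments relative to library size and transcript length, added up for each gene symbol. The tables carry no fragment numbers, and the depth is unknown. Summed FPKM per library ran from 282029 to 340979. Nothing in the labels says that the frontal cortex libraries came from separate animals, so their p-values measure the spread between these libraries, which may be partly technical. Xist, given below, was above 10 FPKM in part of the libraries of each genotype and far lower in the rest. Neither genotype was thus a single animal, but libraries of the same Xist state may share one. Auts2 itself stood at 29.8, 35.2, 30.4 and 34.5 FPKM in cKO 1 to 4, against 87.7, 92.2, 55.9 and 60.2 FPKM in wild type 1 to 4, and excitatory neuron markers summed to 628 to 717 FPKM in the cKO and 670 to 708 FPKM in wild type libraries. Library cKO 1 stood apart, with correlations of 0.980 to 0.986 with the other 7 across genes. In the bulk tissue, fewer cells of a type and less RNA per cell cannot be told apart. Psmb5, Psmb6 and Psmb7 have processed pseudogenes and Psme2b is a near copy of Psme2, so the values of these genes are uncertain where the authors' counting could split reads. The spans of 13 members overlap another protein-coding gene.

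In frontal cortex the constitutive subunits were abundant, and their order was alike in both genotypes. Psmb6, a catalytic beta subunit, was highest at 138 ± 12.8 FPKM in cKO and 129 ± 9.15 FPKM in wild type libraries (SD, n = 4 each). It was followed by Psmb4, a structural beta subunit, at 107 ± 8.64 FPKM in cKO and 102 ± 6.24 FPKM in wild type. Psma7, Psmd2 and Psma6 came next with wild type means of 99.1 ± 3.43, 97.5 ± 3.16 and 96.8 ± 2.28 FPKM, which did not differ beyond their spread, nor did Psmb4 differ from them beyond its own. Over the 14 core subunits, mean levels ran from 36.6 to 138 FPKM (median 81.2) in cKO and from 35.2 to 129 FPKM (median 76.8) in wild type libraries. Over the 17 regulatory subunits they ran from 27.3 to 98.8 FPKM (median 62.6) in cKO and from 29.6 to 97.5 FPKM (median 61.2) in wild type libraries. Psma2 was the lowest core subunit, and Psmd11 the lowest regulatory one.

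The chaperones and the inhibitor were present at lower levels. The core assembly chaperones Psmg1 to Psmg4 had means of 12.9 to 16.2 FPKM in cKO and 12.5 to 15.1 FPKM in wild type libraries. The regulatory particle chaperones Psmd5, Psmd9 and Psmd10 had means of 7.12 to 17.3 FPKM in cKO and 6.77 to 16.3 FPKM in wild type. Psme1, an activator subunit that pairs with Psme2, was the highest activator at 51.0 ± 3.56 FPKM in cKO and 44.2 ± 1.26 FPKM in wild type.

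Of the 5 tissue-specific core subunits, 4 were nearly silent in both genotypes, and Psmb10 was not. Psma8, the alpha subunit of testis, and Psmb11, the beta subunit of the thymus, reached at most 0.204 FPKM in any cKO library and 0.132 FPKM in any wild type library. The immunoproteasome subunits Psmb8 and Psmb9, which interferon induces, had means of 0.308 ± 0.118 and 0.0977 ± 0.0744 FPKM in cKO and of 0.278 ± 0.163 and 0.211 ± 0.204 FPKM in wild type (SD, n = 4 each). These 4 genes fell under the filter of a mean of 1 FPKM in each comparison and were not tested, which left 46 of the 50 members. The third immunoproteasome subunit, Psmb10, passed the filter at 14.02 ± 3.38 FPKM in cKO and 13.2 ± 2.26 FPKM in wild type. Of its FPKM, 68.6% to 81.7% in cKO libraries and 75.3% to 79.9% in wild type libraries stood on transcripts not annotated as protein-coding, mainly a retained-intron transcript. Its protein-coding transcript stood at 2.72 to 4.08 FPKM in cKO and 2.37 to 3.21 FPKM in wild type. Antigen processing genes that interferon also induces summed to 24.7 to 31.3 FPKM in cKO and 25.2 to 30.9 FPKM in wild type, and 0 of the 4 that could be tested passed.

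**Figure D1:**
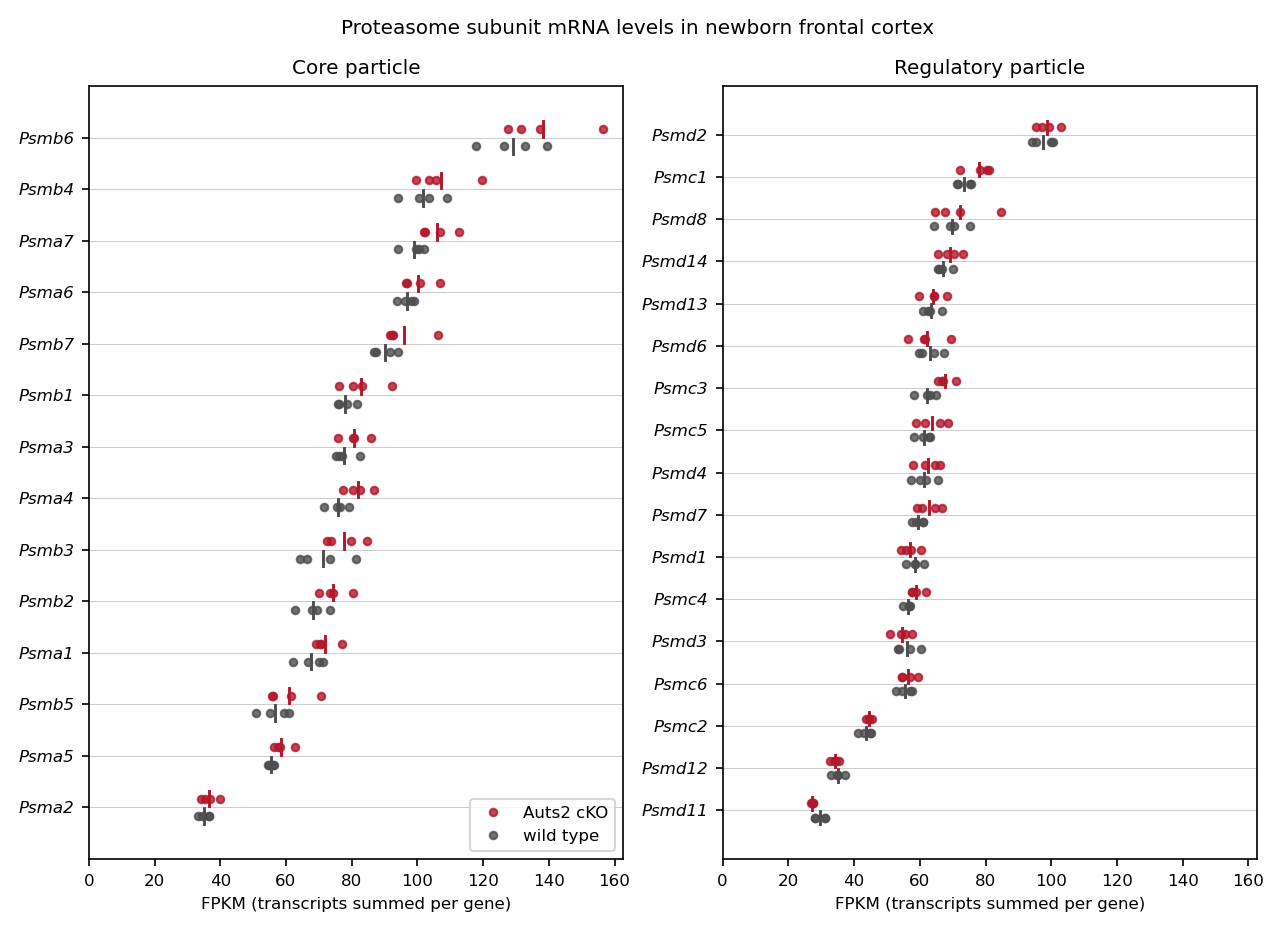
FPKM of the 14 core and 17 regulatory particle genes in frontal cortex, with 1 point per library and a vertical bar at the mean of 4 Auts2 cKO (red, upper row) or 4 wild type (grey, lower row) libraries, genes ordered by wild type mean. The cKO means of the core genes lie slightly right of the wild type means, with the points of the groups overlapping in 13 of 14 core genes.

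No proteasome gene passed the threshold between cKO and wild type frontal cortex. In the limma test, 0 of the 46 members tested passed an adjusted p of 0.05 in either direction, where 3 of all 12786 genes (0.0235%) passed. Only Psme1 had an unadjusted p under 0.05 (limma). It stood at 56.0, 50.5, 47.7 and 49.7 FPKM in cKO 1 to 4, against 42.6, 44.0, 45.5 and 44.8 FPKM in wild type 1 to 4. Every cKO library was above every wild type library, with a log2 difference of 0.20 ± 0.06 (SE) and an adjusted p of 0.628 (limma). Groups did not overlap for 5 of the 46 members, Psma7, Psmc3, Psmc4, Psmd11 and Psme1, beside 4.41% of all genes.

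The differences of the members were mostly above 0 and small, and they were smaller without cKO 1. Of the 46 members, 37 had a positive log2 difference, with a median of 0.07 over the members and 0.001 over all genes tested. All 14 core subunits were positive, by 0.05 to 0.12 (median 0.09), and so were 12 of the 17 regulatory subunits (median 0.03). The members together stood at 2651 FPKM in cKO 1 and at 2380 to 2455 FPKM in cKO 2 to 4, against 2293 to 2434 FPKM in the wild type libraries. The cKO 1 value was thus above all others, while cKO 2 to 4 overlapped the wild type libraries. Without cKO 1, the median was 0.02 over the members, 0.03 over the core and 0.02 over the regulatory subunits. With trends of transcript length and GC content removed from each library, the median was 0.02 over the members, 0.03 over the core and 0.0005 over the regulatory subunits. None of these medians was tested.

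The level of Xist, an RNA made in female cells, was unevenly spread over the genotypes. It stood at 212, 214, 250 and 0.390 FPKM in cKO 1 to 4, against 0.0970, 217, 0.397 and 0.0854 FPKM in wild type 1 to 4, so it was above 10 FPKM in 3 of 4 cKO and 1 of 4 wild type libraries. With this state as a covariate, 0 members passed, the median log2 difference was 0.05 over the members, 0.06 over the core and 0.03 over the regulatory subunits, and Auts2 itself had -1.22 ± 0.17 (SE; adjusted p = 0.0706, limma).

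The catalytic subunits followed the same order in every frontal cortex library. Psmb5, the chymotrypsin-like subunit, stood at 70.5, 55.6, 56.0 and 61.4 FPKM in cKO 1 to 4, against 55.1, 59.2, 60.9 and 50.8 FPKM in wild type 1 to 4, with a log2 difference of 0.10 ± 0.09 (SE). Psmb6, the caspase-like subunit, stood at 156, 127, 132 and 137 FPKM in cKO 1 to 4, against 127, 139, 133 and 118 FPKM in wild type 1 to 4 (0.09 ± 0.08). Psmb7, the trypsin-like subunit, stood at 106, 92.3, 91.7 and 92.7 FPKM in cKO 1 to 4, against 91.6, 94.2, 87.5 and 86.8 FPKM in wild type 1 to 4 (0.09 ± 0.07). In each of the catalytic genes cKO 1 was the highest library and the groups overlapped.

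Among the other members, the log2 differences stayed between -0.11 and 0.20. Psmg2, a core assembly chaperone, stood at 17.6, 13.9, 14.6 and 14.04 FPKM in cKO 1 to 4, against 12.2, 11.7, 14.4 and 13.4 FPKM in wild type 1 to 4, a log2 difference of 0.20 ± 0.10 (SE) with an adjusted p of 0.641 (limma) and overlapping groups. The lowest value was that of Psmd11, a scaffold subunit of the regulatory particle, at 26.8, 27.1, 27.5 and 27.6 FPKM in cKO 1 to 4, against 31.2, 31.2, 28.1 and 28.0 FPKM in wild type 1 to 4 (-0.11 ± 0.07). Here all cKO libraries lay below all wild type libraries, with an adjusted p of 0.641 (limma). The ATPase Psmc1 averaged 78.1 ± 4.03 FPKM in cKO and 73.4 ± 2.183 FPKM in wild type, and Psmd14, which removes ubiquitin chains, 69.3 ± 3.179 FPKM in cKO and 67.1 ± 2.07 FPKM in wild type. Psmb3, a structural beta subunit, and Psme2, the partner of Psme1, both had a log2 difference of 0.12 ± 0.08 (SE). Psmc3ip had 0.13 ± 0.13 and the chaperone Psmd9 -0.04 ± 0.11. The core assembly chaperones Psmg1, Psmg3 and Psmg4 had 0.10 ± 0.10, -0.01 ± 0.09 and 0.09 ± 0.16. The nuclear activators Psme3 and Psme4 had log2 differences of -0.11 ± 0.07 and -0.08 ± 0.09, and Psmf1 had 0.07 ± 0.09 (SE).

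Genes that work with the proteasome were examined as a list of 29, of which 28 were tested in each comparison. They include ubiquitin genes, ubiquitin receptors and shuttles, the unfoldase Vcp with its cofactors, and Nfe2l1, the transcription factor known to raise proteasome genes together. In frontal cortex 0 of the 28 passed in either direction, the log2 differences ran from -0.24 to 0.18, and the median was 0.04. Nfe2l1 averaged 30.0 ± 1.11 FPKM in cKO and 29.0 ± 0.867 FPKM in wild type libraries (SD, n = 4 each).

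In the AUTS2 pull-down the genes of the regulatory particle and of the core particle gave different counts. Against IgG, 8 of the 46 members tested were higher, 17.4% beside 13.7% of all 14570 genes, and 1 was lower, 2.17% beside 9.69% of all genes. The higher members were the ATPases Psmc2, Psmc3 and Psmc4, the regulatory subunits Psmd1, Psmd3 and Psmd7, the alpha subunit Psma7 and the activator Psme1, and the lower one was Psmf1 (limma). These were 6 of 17 regulatory subunits (35.3%) and 1 of 14 core subunits (7.14%). The median log2 fold change was 0.42 over the regulatory and -0.04 over the core subunits, and 0.02 over all genes tested. These counts depended on the scaling: under quantile normalization 4 members were higher (Psma7, Psmc3, Psmc4 and Psme1) and 0 lower, with 2 regulatory and 1 core subunit among them and medians of 0.19 over the regulatory and -0.13 over the core subunits. With length and GC trends removed, 3 regulatory subunits and 1 core subunit were higher. For the whole set of 46, the share of higher members was near that of all genes.

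Against the input, 6 of the 46 members were higher, 13.0% beside 19.3% of all 14458 genes, and 12 were lower, 26.1% beside 16.6% of all genes. The 6 higher members, Psma7, Psmc3, Psmc4, Psmd3, Psmd7 and Psme1, were also higher against IgG. Both comparisons use the same RIP libraries, so they are not independent. The 12 lower members comprised 8 of 14 core subunits (57.1%), 1 of 17 regulatory subunits (5.88%), Psmf1 and the chaperones Psmd5 and Psmg4. The median log2 fold change was -0.75 over the core and -0.02 over the regulatory subunits, and -0.02 over all genes tested. Of the core subunits, 13 had a negative fold change, all but Psma7. Under quantile normalization 5 core and 2 regulatory subunits were lower, Psmc6 and Psmd4, and the 5 higher members were Psma7, Psmb10, Psmc3, Psmc4 and Psme1.

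**Figure D2:**
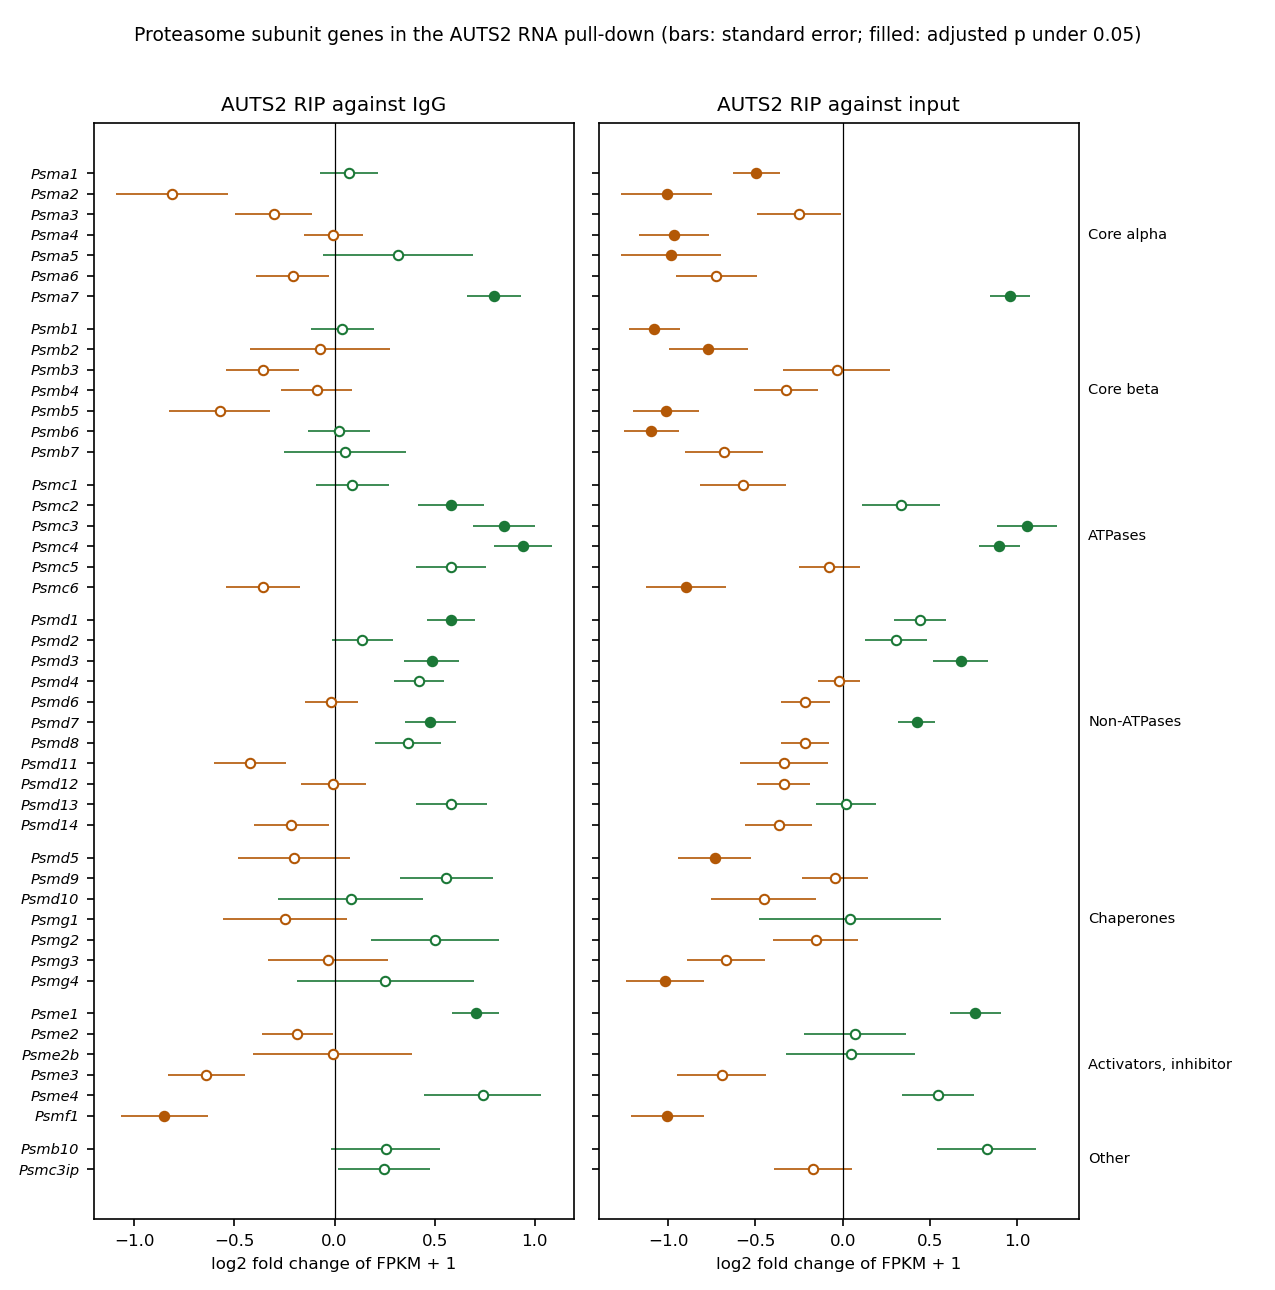
Log2 fold change of FPKM + 1 in AUTS2 RIP over IgG (left) and over input (right) for the 46 tested members, grouped by role, with bars of 1 standard error and filled points where the adjusted p was under 0.05 (2 libraries per group). The constitutive beta subunits lie at or left of 0 against input, while Psma7, Psmc3, Psmc4 and Psme1 lie right of 0 in both panels.

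The contrast between the particles was visible in each library. The mean log2 level of the core subunits minus that of the regulatory subunits was -1.25 and -1.21 in RIP A and B, against -0.90 and -0.80 in IgG A and B. In the table with the input it was -1.25 and -1.21 in RIP A and B, against -0.52 and -0.60 in input A and B. Both RIP libraries were below every IgG and input library, and the regulatory subunits were the higher ones in all of them. In frontal cortex the difference had the other sign, with 0.40 to 0.52 in the cKO and 0.36 to 0.39 in the wild type libraries. The frontal cortex libraries were made from polyA RNA with a TruSeq protocol, the pull-down libraries from total RNA with a SMARTer Stranded protocol, so tissue part and library protocol cannot be told apart here, and no test was made between these tables.

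**Figure D3:**
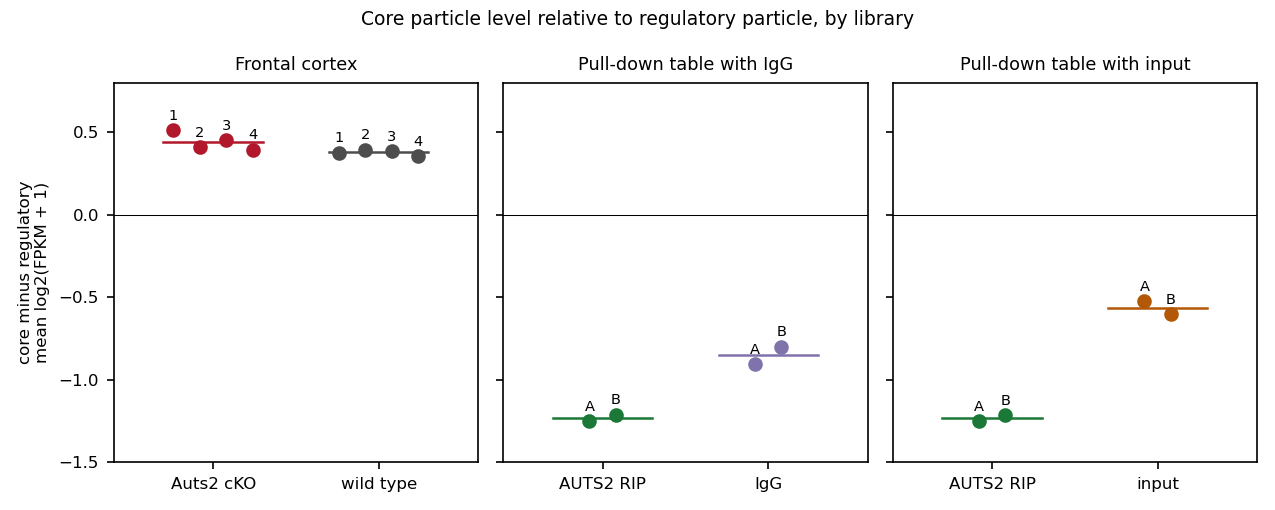
Mean log2(FPKM + 1) of the 14 core subunits minus that of the 17 regulatory subunits in each library, with a line at the group mean and library numbers or letters above the points. The Auts2 cKO libraries lie at 0.40 to 0.52 beside wild type at 0.36 to 0.39, and the AUTS2 RIP libraries lie at -1.25 and -1.21, under IgG and under input.

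The core and regulatory subunits also differed in transcript length. Trends of length and GC content were removed in a single step, so the part of either was not tested. In the table with the input the median transcript length was 1103 bases over the core, 1531 over the regulatory subunits and 2408 over all genes tested. With length and GC trends removed from each library, the median log2 fold change against input was -0.33 over the core and 0.23 over the regulatory subunits, and 4 members were lower (Psmb1, Psmb5, Psmb6 and Psmf1) and 6 higher, 5 of them as before and Psme4 in place of Psmd3. Against IgG the same step gave medians of 0.14 over the core and 0.38 over the regulatory subunits, with 5 members higher and 1 lower, all among the 9 named above. The core median against IgG thus changed sign, and the core stayed under the regulatory median in both comparisons.

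Psma7 was the exception among the core subunits. It encodes an alpha ring subunit and stood at 71.5 and 74.8 FPKM in RIP A and B, against 46.2 and 37.7 FPKM in IgG A and B, and at 72.8 and 76.0 FPKM in RIP, against 35.4 and 40.3 FPKM in input A and B. The groups did not overlap, and the log2 fold change was 0.80 ± 0.13 over IgG (adjusted p = 0.0103) and 0.96 ± 0.11 over input (SE; limma, adjusted p = 0.00253). Its main protein-coding transcript alone stood at 55.0 and 57.5 FPKM in RIP, against 33.2 and 36.1 FPKM in input A and B. By the mean of the RIP libraries it ranked second among the members, and in RIP B first; the highest mean was that of Psmd4, a ubiquitin receptor with 88.9 and 73.7 FPKM in RIP A and B against 61.1 and 59.2 FPKM in IgG A and B. Psmd4 did not pass against IgG (adjusted p = 0.0568, limma, and 0.0451 with the trio as a block) and had a log2 fold change of -0.02 ± 0.12 over input.

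The ATPases were uneven. Psmc4 stood at 54.7 and 52.7 FPKM in RIP A and B, against 30.9 and 24.5 FPKM in IgG, and at 55.7 and 53.5 FPKM in RIP, against 27.1 and 30.7 FPKM in input A and B. It had the smallest p of all members against IgG, with a log2 fold change of 0.94 ± 0.14 (SE; limma, adjusted p = 0.00808), and 0.90 ± 0.12 over input (adjusted p = 0.00346, limma). Psmc3 stood at 47.0 and 38.5 FPKM in RIP A and B, against 25.3 and 21.4 FPKM in IgG, and at 47.9 and 39.1 FPKM in RIP, against 22.8 and 18.04 FPKM in input A and B. Its log2 fold change was 0.84 ± 0.16 over IgG and 1.06 ± 0.17 over input (SE), the highest of all members against input; Slc39a13 overlaps it on the other strand. Psmc2 stood at 14.8 and 14.01 FPKM in RIP A and B, against 9.64 and 8.96 FPKM in IgG A and B, and its adjusted p of 0.0494 became 0.0662 with the trio as a block (limma). Psmc6 went the other way against input, at 9.53 and 7.96 FPKM in RIP A and B, against 14.1 and 20.7 FPKM in input A and B, a log2 fold change of -0.90 ± 0.23 (adjusted p = 0.0273, limma). Psmc1 and Psmc5 did not pass in either comparison, with log2 fold changes of 0.09 ± 0.18 and 0.58 ± 0.17 over IgG and of -0.57 ± 0.25 and -0.08 ± 0.18 over input (SE).

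Of the 11 non-ATPase subunits, 3 were higher against IgG and 2 against input, beside 13.7% and 19.3% of all genes. Lower subunits numbered 0 in either comparison, beside 9.69% and 16.6% of all genes. Psmd7, the partner of Psmd14 in the deubiquitinating pair, stood at 63.2 and 69.5 FPKM in RIP A and B, against 51.2 and 43.8 FPKM in IgG, and at 64.4 and 70.5 FPKM in RIP, against 50.9 and 49.0 FPKM in input A and B (0.48 ± 0.13 and 0.42 ± 0.11, SE). Psmd7 lost both calls under quantile normalization (adjusted p = 0.303 over IgG and 0.358 over input), and that over IgG with length and GC trends removed (0.0509, limma). Psmd3, a scaffold subunit, stood at 45.1 and 39.3 FPKM in RIP A and B, against 27.8 and 31.9 FPKM in IgG, and at 45.9 and 39.9 FPKM in RIP, against 23.5 and 29.7 FPKM in input A and B. Its adjusted p against IgG of 0.0490 became 0.0565 with the trio as a block (limma). Psmd3 lost both calls under quantile normalization (adjusted p = 0.19 over IgG and 0.0556 over input, limma). It also lost both with length and GC trends removed (adjusted p = 0.321 over IgG and 0.288 over input, limma). Psmd1, another scaffold subunit, stood at 35.9 and 36.2 FPKM in RIP A and B, against 23.3 and 24.3 FPKM in IgG A and B (adjusted p = 0.0198, limma). Against input it did not pass, at 36.6 and 36.7 FPKM in RIP against 30.2 and 23.6 FPKM in input A and B. Under quantile normalization Psmd1 lost its call against IgG (adjusted p = 0.0669, limma). The protein-coding genes Gm21972, on the same strand, and Htr2b, on the other, overlap its span. Psmd14 had log2 fold changes of -0.22 ± 0.19 over IgG and -0.37 ± 0.19 over input and passed in neither.

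**Figure D4:**
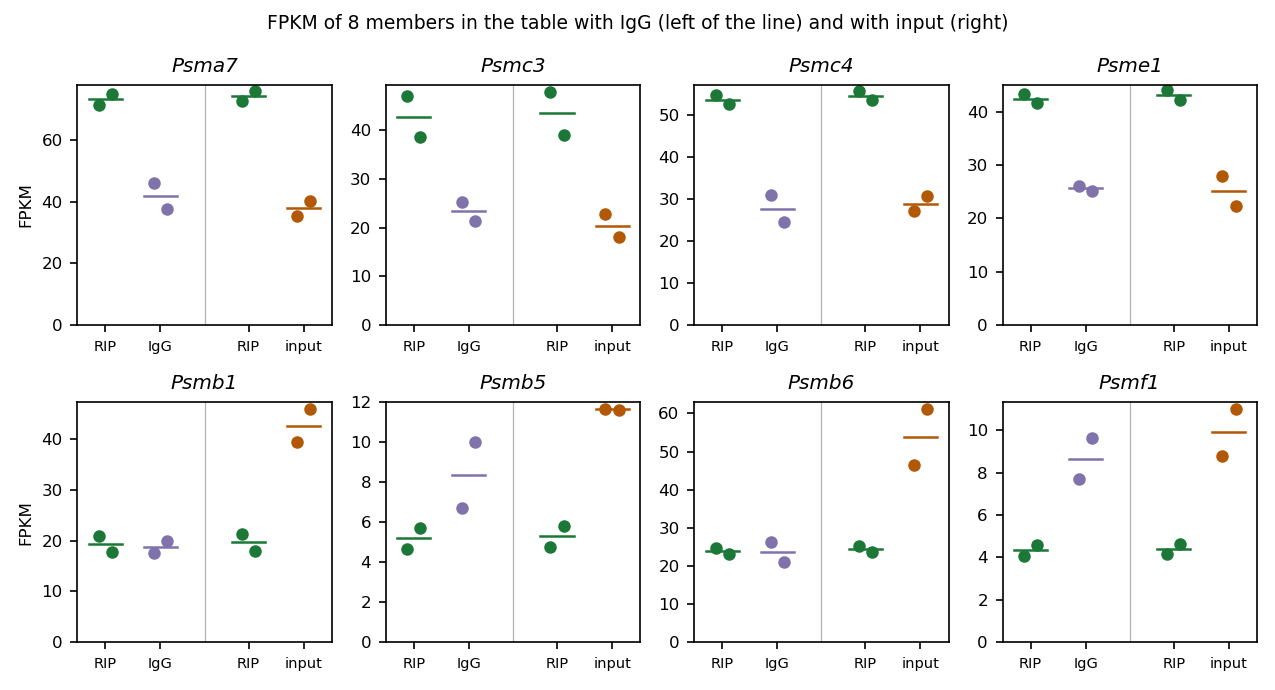
FPKM of 8 members by library in the 2 pull-down tables, with AUTS2 RIP beside IgG left of the line and AUTS2 RIP beside input right of it, points for trios A and B and a line at the mean. In the upper row RIP lies above both IgG and input; Psmb1 and Psmb6 lie under input but level with IgG, and Psmf1 lies under both.

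Of the 3 catalytic beta subunits, Psmb5 and Psmb6 were lower in the pull-down than in input, and Psmb7 did not pass. Psmb6 stood at 25.2 and 23.6 FPKM in RIP A and B, against 46.6 and 61.1 FPKM in input A and B, a log2 fold change of -1.10 ± 0.16 (SE; limma, adjusted p = 0.00454), the lowest of all members. Against IgG it stood at 24.7 and 23.3 FPKM in RIP, against 26.4 and 21.1 FPKM in IgG A and B (0.02 ± 0.15), with overlapping groups. Most of the Psmb6 FPKM lay on transcripts not annotated as protein-coding, 73.7% and 78.1% in RIP A and B and 65.5% and 75.3% in input A and B. Its protein-coding transcript stood at 6.61 and 5.165 FPKM in RIP, against 16.1 and 15.1 FPKM in input. On that transcript alone Psmb6 was also lower than input. Psmb5 stood at 4.77 and 5.83 FPKM in RIP A and B, against 11.7 and 11.6 FPKM in input A and B (-1.01 ± 0.19, adjusted p = 0.0104, limma), and at 4.68 and 5.74 FPKM in RIP, against 6.70 and 10.0 FPKM in IgG (-0.57 ± 0.25, adjusted p = 0.152). Psmb7 stood at 10.0 and 10.3 FPKM in RIP A and B, against 20.8 and 13.7 FPKM in input A and B, with an adjusted p of 0.0611 (limma), and 0.0498 with the trio as a block. Against IgG Psmb7 had a log2 fold change of 0.05 ± 0.31 (SE), with IgG A and B at 13.5 and 6.78 FPKM on either side of the RIP values of 9.82 and 10.1 FPKM.

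The other core subunits lower than input were Psma1, Psma2, Psma4, Psma5, Psmb1 and Psmb2. Psmb1 stood at 21.2 and 18.02 FPKM in RIP A and B, against 39.3 and 45.8 FPKM in input A and B, a log2 fold change of -1.08 ± 0.15 (SE; limma, adjusted p = 0.00386). It was level with IgG, at 20.8 and 17.7 FPKM in RIP against 17.5 and 19.96 FPKM in IgG A and B. Psma4 stood at 18.3 and 19.4 FPKM in RIP A and B, against 31.1 and 45.8 FPKM in input A and B (-0.97 ± 0.20). Psma2 stood at 2.59 and 1.66 FPKM in RIP, against 5.20 and 5.23 FPKM in input A and B (-1.01 ± 0.26), with a gene on the same strand, AW209491, overlapping its span. Against IgG none of these 6 passed: the log2 fold changes ran from -0.81 for Psma2 to 0.32 for Psma5.

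Among activators and the inhibitor, Psme1 and Psmf1 went opposite ways. Psme1 stood at 43.2 and 41.6 FPKM in RIP A and B, against 26.1 and 25.2 FPKM in IgG, and at 44.0 and 42.2 FPKM in RIP, against 28.0 and 22.4 FPKM in input A and B (0.70 ± 0.12 and 0.76 ± 0.15, SE; adjusted p = 0.0102 and 0.0111, limma). Part of this lay on transcripts not annotated as protein-coding: 53.1% and 42.7% of its FPKM in RIP A and B, against 20.3% and 24.9% in input A and B. On protein-coding transcripts alone it passed against IgG with a log2 fold change of 0.56, and against input it had 0.195 and did not pass. Psmf1, which holds back core particle activity in the test tube, stood at 4.09 and 4.58 FPKM in RIP A and B, against 7.67 and 9.64 FPKM in IgG, and at 4.16 and 4.65 FPKM in RIP, against 8.78 and 11.0 FPKM in input A and B. Its log2 fold change was -0.85 ± 0.22 over IgG and -1.004 ± 0.21 over input (SE; adjusted p = 0.0371 and 0.0143, limma). On protein-coding transcripts alone it was 0.03 over IgG and -0.74 over input, and passed in neither. Psme2, the partner of Psme1, did not pass, with -0.19 ± 0.18 over IgG and 0.07 ± 0.29 over input. Psme3 and Psme4 did not pass either, with log2 fold changes of -0.64 ± 0.19 and 0.74 ± 0.29 over IgG and of -0.69 ± 0.26 and 0.55 ± 0.21 over input (SE). With the trio as a block Psme4 passed against IgG (adjusted p = 0.0245) and Psme3 against input (adjusted p = 0.0341, limma).

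Of the 4 core assembly chaperones 1 passed, in 1 comparison, as lower than input, beside 16.6% of all genes. Psmg4 stood at 9.03 and 13.9 FPKM in RIP A and B, against 25.5 and 22.2 FPKM in input A and B (-1.02 ± 0.22, adjusted p = 0.0177, limma), and at 8.87 and 13.7 FPKM in RIP, against 15.1 and 5.36 FPKM in IgG A and B (0.25 ± 0.44). Psmg1, Psmg2 and Psmg3 had log2 fold changes of -0.25 ± 0.31, 0.50 ± 0.32 and -0.03 ± 0.30 over IgG and of 0.04 ± 0.52, -0.15 ± 0.24 and -0.67 ± 0.22 over input (SE). The input libraries of Psmg1 were far apart, at 2.596 and 10.3 FPKM in A and B. Of the regulatory particle chaperones Psmd5 was lower than input, at 5.29 and 4.39 FPKM in RIP A and B against 7.90 and 9.53 FPKM in input A and B (adjusted p = 0.0399, limma, and 0.0541 with the trio as a block). The immunoproteasome subunits Psmb8 and Psmb9 were at or under 0.378 FPKM in the RIP libraries, while Psmb8 was listed at 1.55 FPKM in input A and at 0 in input B. Psmb10 stood at 4.57 and 3.37 FPKM in RIP, against 2.16 and 1.46 FPKM in input A and B, and did not pass (adjusted p = 0.0701, limma).

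Against input, the summed levels of each marker list stood apart between the RIP and input libraries. The counts of single markers called stand beside 19.3% of all genes higher and 16.6% lower. Radial glia markers (5 of 5 listed, 1 lower in the test) summed to 189 to 193 FPKM in RIP and 334 to 352 FPKM in input libraries. Red blood cell markers (4 of 5 tested, 2 lower) summed to 19.1 to 39.3 FPKM in RIP and 67.0 to 77.3 FPKM in input, and microglia markers (6 of 6, 1 lower) to 14.6 to 15.1 FPKM in RIP and 20.8 to 25.6 FPKM in input. Endothelial markers (5 of 5, 1 higher and 1 lower) summed to 23.7 to 27.7 FPKM in RIP and 30.5 to 33.7 FPKM in input. Markers of excitatory neurons (6 of 6, 1 higher and 1 lower) summed to 417 to 441 FPKM in RIP and 388 to 394 FPKM in input, and those of interneurons (5 of 5, 1 higher) to 128 to 143 FPKM in RIP and 105 to 110 FPKM in input. Antigen processing genes (5 of 6 tested, 1 lower) summed to 17.2 to 19.0 FPKM in RIP and 19.5 to 23.6 FPKM in input. No listed marker was at 0 in every library. Against IgG only the microglia sums stood apart, at 14.4 to 14.9 FPKM in RIP and 19.4 to 23.3 FPKM in IgG. Of the 6 microglia markers, 0 passed in that comparison, beside 13.7% of all genes higher and 9.69% lower. The part of the cell type markers in the results of the members was not tested.

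Of the genes that work with the proteasome, 4 of 28 were higher against IgG (14.3%), close to the 13.7% of all genes, and 0 were lower beside 9.69% of all genes. The higher ones were Adrm1, a ubiquitin receptor of the regulatory particle, Ecpas, a proteasome adaptor, the shuttle Ubqln2 and Vcp. Ecpas stood at 49.7 and 41.9 FPKM in RIP A and B, against 22.9 and 24.6 FPKM in IgG A and B (0.91 ± 0.14, adjusted p = 0.00748, limma). Adrm1 stood at 20.3 and 21.1 FPKM in RIP, against 11.8 and 11.98 FPKM in IgG (0.75 ± 0.15). On protein-coding transcripts alone the log2 fold change of Adrm1 was -0.287 and did not pass. Ubqln2 and Vcp lost their calls against IgG under quantile normalization (adjusted p = 0.52 and 0.191, limma) and with length and GC trends removed (adjusted p = 0.135 and 0.122, limma). Against input, 4 of 28 were higher (14.3%) beside 19.3% of all genes, and 5 lower (17.9%) beside 16.6% of all genes. Ubqln2 stood at 132 and 114 FPKM in RIP A and B, against 59.0 and 58.9 FPKM in input A and B (1.05 ± 0.11, adjusted p = 0.00176, limma). Sem1, the smallest subunit of the regulatory particle, stood at 15.4 and 15.97 FPKM in RIP A and B, against 30.3 and 33.9 FPKM in input A and B (-0.99 ± 0.13, adjusted p = 0.00384), and Pomp, which matures the core particle, at 7.36 and 6.52 FPKM in RIP, against 16.6 and 14.9 FPKM in input (-1.08 ± 0.17, adjusted p = 0.0063, limma). Akirin2, needed for nuclear import of proteasomes in human cells, and the ubiquitin fusion gene Rps27a were lower too, with log2 fold changes of -0.76 ± 0.13 and -0.86 ± 0.13 over input. With length and GC trends removed, Sem1, Akirin2 and Rps27a did not pass (adjusted p = 0.268, 0.0939 and 0.174, limma). Ecpas, Vcp and Uba1 were higher over input as well, with log2 fold changes of 1.08 ± 0.15, 0.55 ± 0.16 and 0.62 ± 0.14 (SE).

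The transcript classes of the members differed between the sets, which also differed in library protocol (polyA RNA against total RNA). The shares below were taken over the members alone, so they do not show a trait particular to these genes. Transcripts not annotated as protein-coding carried 7.92% to 8.85% of the members' FPKM in cKO and 8.18% to 8.98% in wild type libraries. In the pull-down tables they carried 23.3% and 21.8% in RIP A and B, 25.8% and 26.1% in IgG A and B, and 15.4% and 20.4% in input A and B. Most of this was retained-intron transcripts, with 16.4% and 17.0% in RIP, 19.4% and 19.2% in IgG and 12.4% and 16.9% in input libraries. Psma3, an alpha subunit, carried 74.5% to 79.5% of its FPKM on transcripts of any class not annotated as protein-coding in cKO and 74.2% to 79.8% in wild type libraries, with 48.3% and 51.6% in RIP A and B against 11.7% and 22.7% in input A and B. These splits are estimates by the authors' software from fragments that transcripts share. On protein-coding transcripts alone, 11 members were higher and 1 lower against IgG, and 7 higher and 14 lower against input. No share of all genes was taken under this setting, so these counts cannot be set against one. Psma7, Psmc3, Psmc4, Psmd1, Psmd2, Psmd3 and Psmd7 were higher in both, and the RIP libraries are shared.

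**Figure D5:**
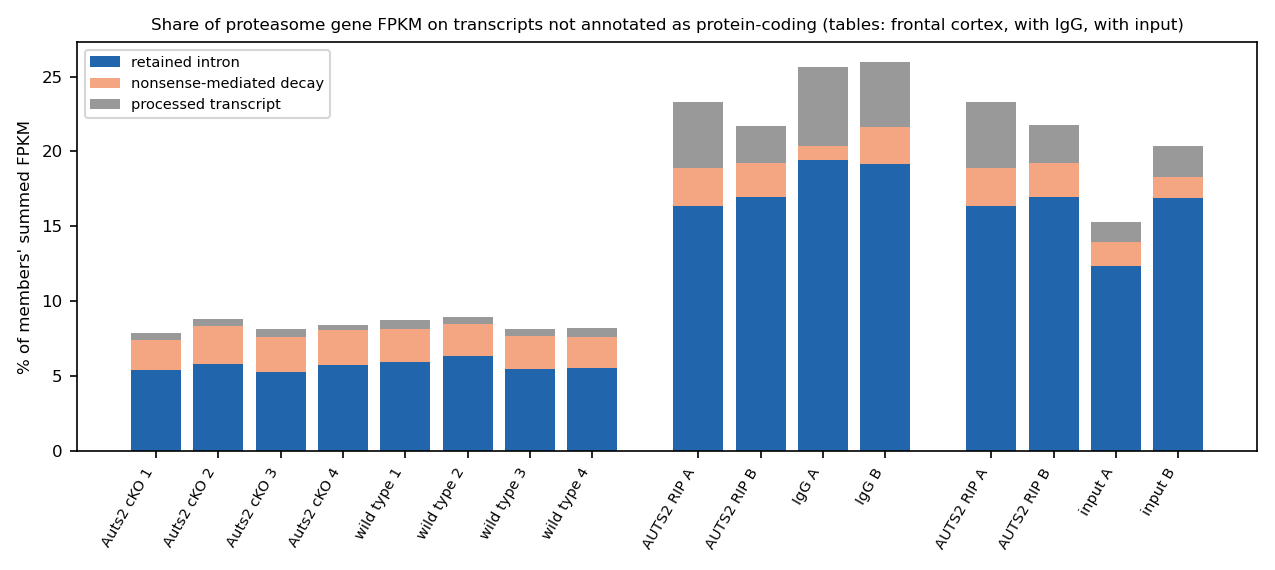
Share of the members' summed FPKM on retained-intron (blue), nonsense-mediated decay (orange) and processed (grey) transcripts, 1 bar per library, in the frontal cortex table and the 2 pull-down tables. The frontal cortex bars lie near 8% to 9% in both genotypes, and every pull-down bar stands above them. The frontal cortex and pull-down libraries differ in protocol, and no share over all genes is drawn.

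Proteasome genes are known to be raised together by Nfe2l1 through antioxidant response elements, so the promoters were read for the letters TGACNNNGC and the looser TGANNNNGC, on both strands, in windows from 250 bases before to 50 after the RefSeq start (GRCm38.p6). Each match of the first is also one of the second. Of the 50 members, 42 had a window. TGACNNNGC stood in 6 of their 45 windows (13.3%), beside 12.4% of 32851 windows of all genes, and TGANNNNGC in 26 (57.8%), beside 41.3%. The looser form stood in 9 of 12 core windows (75%) and 6 of 15 regulatory windows (40%). The 6 genes with the stricter match were Psmb5, Psmb6, Psmc6, Psmd9, Psmd12 and Psme4. A match is a description of the letters and not a binding site. The windows below are of members that were lower than input (Psmb5, Psmb6) and higher than input (Psma7, Psmc4), with matches to TGANNNNGC in capitals. They lie at chr14:54617946-54618245 (Psmb5, minus strand), chr11:70525107-70525406 (Psmb6, plus strand), chr2:180042415-180042714 (Psma7, minus strand) and chr7:28050043-28050342 (Psmc4, minus strand).
Psmb5: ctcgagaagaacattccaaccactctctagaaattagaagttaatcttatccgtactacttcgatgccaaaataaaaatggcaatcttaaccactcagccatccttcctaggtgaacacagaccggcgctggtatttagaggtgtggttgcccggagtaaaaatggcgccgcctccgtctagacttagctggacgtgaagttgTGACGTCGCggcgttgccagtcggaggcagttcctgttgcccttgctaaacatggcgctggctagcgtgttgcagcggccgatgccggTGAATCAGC
Psmb6: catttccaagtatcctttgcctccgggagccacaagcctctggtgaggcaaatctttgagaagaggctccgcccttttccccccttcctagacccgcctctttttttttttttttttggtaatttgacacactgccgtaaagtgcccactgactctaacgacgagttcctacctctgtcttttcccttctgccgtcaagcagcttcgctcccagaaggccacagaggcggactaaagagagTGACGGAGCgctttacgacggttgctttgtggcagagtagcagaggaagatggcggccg
Psma7: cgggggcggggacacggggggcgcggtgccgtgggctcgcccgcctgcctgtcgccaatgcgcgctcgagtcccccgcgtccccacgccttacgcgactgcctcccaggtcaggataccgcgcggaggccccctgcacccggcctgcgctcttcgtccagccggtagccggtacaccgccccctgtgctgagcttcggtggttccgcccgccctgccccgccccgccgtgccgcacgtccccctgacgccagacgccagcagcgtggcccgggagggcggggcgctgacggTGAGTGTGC
Psmc4: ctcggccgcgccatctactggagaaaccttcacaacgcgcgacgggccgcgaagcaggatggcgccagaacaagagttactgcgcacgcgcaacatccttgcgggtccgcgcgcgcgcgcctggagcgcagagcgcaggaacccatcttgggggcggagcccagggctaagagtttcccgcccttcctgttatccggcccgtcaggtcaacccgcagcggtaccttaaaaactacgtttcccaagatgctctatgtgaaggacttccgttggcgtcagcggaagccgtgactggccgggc
The first match in Psmb5 and that in Psmb6 also fit TGACNNNGC, and begin 47 and 9 bases before the start. Psma7 held the looser form alone, after the start, and Psmc4 held neither. These windows were 51.7%, 52.7%, 77.0% and 63.7% G or C in Psmb5, Psmb6, Psma7 and Psmc4, beside a mean of 53.8% over all windows. They do not stand for all called members. Of the other members lower than input, Psmc6 held the stricter form, and Psma4, Psma5, Psmd5 and Psmg4 the looser form alone. Psma1, Psma2 and Psmf1 held neither, and Psmb1 and Psmb2 had no window. Of the other members higher than input, Psme1 held neither, and Psmc3, Psmd3 and Psmd7 had no window. A link between these letters and the pull-down was not tested.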

How the data were processed

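The deposited values are FPKM per transcript, as the labels name the authors' tables. Alignment and quantification used STAR 2.5, SAMtools and Cuffdiff 2.2.1 with GRCm38.p4 (mm10), according to the submitters' processing notes. No source states strand settings, filters or scaling between libraries. Each table was scaled by itself: the RIP libraries in the tables with IgG and with input differed by a factor of 1.018 (A) and 1.015 (B), so tests stay within a table. The tables hold no counts, so depth and counting error are unknown, and an exact 0 can be a failed estimate. For cKO 4 the label and the column give different short names, and the library number linked them.

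Of 128508 transcripts per table, 127975 matched GENCODE release 21 by identifier, which gave symbols, transcript classes, length and GC. They were summed per symbol, and 25 rows that name coding sequences, all at 0, were left out. Tests used log2(FPKM + 1), limited to genes averaging 1 FPKM or more over the libraries compared. They were run in limma 3.58.1 under R 4.3.3 (trend, robust, two-sided), with Benjamini-Hochberg adjustment over all genes at 0.05. Fold changes on this scale understate those of low genes. The fits were also run on data simulated with independent normal noise of their own fitted variances. Such data share the assumptions of the fits, so they cannot show whether the real libraries meet them. Python 3.11.15, pandas 2.3.3, numpy 2.4.6 and matplotlib 3.10.9 made tables and figures. Transcript length of a gene is the FPKM-weighted mean.

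The members and lists were chosen with earlier results of these data known. Named genes are, in each comparison, the members called with the 8 smallest p on each side, those with the 4 highest and 4 lowest fold changes, a fixed set (catalytic and immune subunits, Psme, Psmf1 and Psmg genes, Psmc1 and Psmd14), up to 6 called genes of the list of proteasome partners, and Auts2. Others were named after their values were seen. The trios are pairs by design, as each cortex pool was split into RIP, IgG and input. As a check, deviations from the group mean within a trio had correlations of 0.00879 (IgG) and 0.0120 (input). The RefSeq promoter table was matched by symbol. Alternatives were other pseudocounts, filters and scalings, limma without trend and robust settings, protein-coding transcripts only, the replicate block, removal of length and GC trends, Xist state as a covariate in frontal cortex, and each library left out.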

Additional observations from a re-analysis of the deposited data

Results flagged for a closer look

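In frontal cortex 94 groups of 4 libraries were searched for a library far from the other 3, by Dixon's criterion, which chance meets in about 1 of 20 groups. It was met in 2, both by cKO 1. Psmb7 stood at 106.41 FPKM in cKO 1, with the nearest other cKO library at 92.7 FPKM. Psmg1 stood at 16.656 FPKM in cKO 1, with the nearest other at 13.0 FPKM.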

How the results depend on the processing

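In frontal cortex the count of called members (0) and the medians kept their direction and side under every alternative run; leaving out 1 library gave counts of 0 to 0 and member medians of 0.0193 to 0.0879. Against IgG the 9 called members became 5 with no filter, 4 with quantile normalization and 1 without trend and robust settings. Leaving out 1 library leaves 1 in that group, assumed to vary like the other group, and gave 0 (without RIP A or IgG A) to 3, with 2 without RIP B and 3 without IgG B. Against input the 18 calls became 11 with no filter and 10 with length and GC trends removed, and 2 to 10 with 1 library left out (2 without RIP A, 5 without RIP B, 10 without either input). Against IgG the core median was -0.135 under quantile normalization and 0.140 with length and GC trends removed, the regulatory median 0.189 under quantile normalization, and the member median 0.247 with the trends removed; with 1 library left out the core gave -0.155 to 0.0404, the regulatory subunits 0.290 to 0.507 and the members 0.0270 to 0.165. Against input the core median was -0.529 with a pseudocount of 5, -0.916 on protein-coding transcripts and -0.332 with the trends removed. The member median was -0.346, -0.469 and 0.0954 under quantile normalization, on protein-coding transcripts and with the trends removed, and the regulatory median -0.108, -0.140 and 0.228. With 1 library left out the core gave -0.936 to -0.512, the members -0.369 to -0.162 and the regulatory subunits -0.130 to 0.115. On protein-coding transcripts Adrm1 (-0.287) and Psmf1 (0.0273) reversed against IgG. The causes were not tested. With the trio as a replicate block, 9 members were called against IgG and 20 against input; the changed calls stand beside the results, except Psma6, lower than input under the block (adjusted p = 0.0315, limma). The number as a replicate block in frontal cortex, where same-numbered libraries correlated at -0.0394 to 0.176 and the labels give no pairing, called 0. Groups of 2 libraries and the unknown depth limit the pull-down comparisons. Shares over all genes were taken for the main tests alone, so counts of members under the alternatives have none beside them.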
